A study of Mus musculus with 2 samples.

Results

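This account covers 56 mouse genes of the splicing machinery: the SR proteins and their relatives, the heterogeneous nuclear ribonucleoproteins (hnRNPs), the kinases that phosphorylate SR proteins, and proteins of the small nuclear ribonucleoproteins (snRNPs). They were taken by symbol, as every gene whose name begins with Srsf, Sfrs, Srrm, Hnrn, Clk and a digit, Luc7l, Snrnp, Srpk or Tra2, together with Rbm5, Rbm25 and Rbm39. The 56 genes of 23329 carried 97 of the 30383 transcripts measured, 90 of them coding (RefSeq NM_ identifiers) and 7 noncoding (NR_ identifiers). All 56 reached a mean of 1 CPM (reads scaled to a common library size), the minimum that 14153 genes passed. Of the 56, 35 had 1 transcript in the files, 21 had 2 or more, and 5 (Srsf3, Srsf7, Srsf9, Clk1 and Luc7l) had both kinds.

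RNA sequencing had been done on a synaptosomes-enriched fraction and on total homogenate, both from whole brain of wild-type (WT) C57BL/6 mice with no treatment named, and with age, sex and the number of brains per library not given in the sources used here. Synaptosomes are nerve endings that pinch off and reseal when brain tissue is homogenised. The protocol removed a nuclear pellet at low speed and then collected a band from a Percoll density gradient, and the purpose given by the title was to find mRNAs enriched at synapses. There was 1 library of each, so the spread from animal to animal is unknown, no p-value is given, and every ratio compares these 2 libraries.

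The synaptosome library held 13709528 estimated counts and the homogenate library 15210838, with at least 1 count for 16763 and 17453 genes. In the synaptosome library 4 of 5 dendritic neuronal mRNAs were higher by 2-fold or more, with a summed level of 25156 CPM against 5968 CPM in homogenate. Astrocyte mRNAs were higher too, 7 of 8 (summed 18622 CPM against 4364), as were 2 of 6 oligodendrocyte genes (22757 CPM against 7141) and 3 of 5 microglial genes (315 CPM against 157), while 5 of 5 endothelial genes were lower (15.5 CPM against 150). Of 6 long noncoding RNAs known to be held in the nucleus, 5 were at least 2-fold lower in the synaptosome library, with a summed level of 2322 CPM against 9653 CPM in homogenate. No defining marker was at 0 in either library. Fewer cells or fragments of a type and less RNA in each cannot be told apart in bulk samples, and the part of these shifts in the results below was not tested.

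Splicing removes introns in the nucleus, and most of the proteins encoded by these genes work there. SR proteins bind exons and promote their use, hnRNPs often oppose them or repress splice sites, the Clk and Srpk kinases phosphorylate the arginine- and serine-rich tails of SR proteins, and snRNPs recognise and join the splice sites. Genes for SR proteins are known for limiting their own output: they can include a short "poison" exon or keep an intron that carries a stop codon, and such RNA is usually destroyed by nonsense-mediated decay in the cytoplasm or stays in the nucleus. In brain, splicing factors also set neuron-specific exons, and some hnRNPs travel with mRNA into dendrites and glial processes.

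The noncoding transcripts differ from the coding ones by short stretches, and in Luc7l also from the measured coding transcript in their 3′ end. The stretches are shown here because the comparison between the 2 kinds turns on them, in Luc7l only in part. Each is printed 5′ to 3′ on the gene's strand (mm10), from its first base to 30 bases past the first stop codon that is in frame with the start codon of the coding transcript. That stop is in capitals. The sequences are those of GENCODE M21 transcripts, which use the same build as the files.
The extra exon of Srsf3 has 456 bases (chr17:29039454-29039909, plus strand) and lies between exons 3 and 4 of the coding transcript. That of Srsf7 has 460 bases (chr17:80204622-80205081, minus strand) and lies between exons 3 and 4, and that of Srsf9 has 90 bases (chr5:115331450-115331539, plus strand) and lies between exons 2 and 3. The Clk1 intron has 871 bases (chr1:58420212-58421082, minus strand) and follows exon 3, and the same transcript keeps the next intron of 387 bases too. The Luc7l stretch has 1057 bases (chr17:26253974-26255030, plus strand) and lies before exon 2. The Srsf1 intron, from a transcript classed as coding, has 196 bases (chr11:88049216-88049411, plus strand) and follows exon 3.
Srsf3 NR_036613 extra exon: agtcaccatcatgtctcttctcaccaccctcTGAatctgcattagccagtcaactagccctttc
Srsf7 NR_036615 extra exon: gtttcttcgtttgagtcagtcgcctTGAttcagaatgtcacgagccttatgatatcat
Srsf9 NR_036616 extra exon: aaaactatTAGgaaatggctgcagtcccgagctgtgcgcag
Clk1 NR_027854 retained intron: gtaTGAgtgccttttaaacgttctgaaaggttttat
Luc7l NR_037906 retained stretch: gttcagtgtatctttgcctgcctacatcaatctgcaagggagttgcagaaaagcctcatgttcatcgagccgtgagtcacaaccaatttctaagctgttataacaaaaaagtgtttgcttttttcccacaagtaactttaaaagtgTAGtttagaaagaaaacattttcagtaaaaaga
Srsf1 NM_001078167 retained intron: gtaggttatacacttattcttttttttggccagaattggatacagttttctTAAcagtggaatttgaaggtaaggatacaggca

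The other Clk1 noncoding transcript, NR_027853, skips exon 4, which has 91 bases and so is not a multiple of 3, and the reading frame then meets a TAG in the next exon. The skipped exon lies at chr1:58420121-58420211 on the minus strand, and no letter in it is in capitals because it holds no stop in the coding frame.
Clk1 exon skipped in NR_027853: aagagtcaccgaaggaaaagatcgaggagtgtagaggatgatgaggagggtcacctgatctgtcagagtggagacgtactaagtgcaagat

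In all 7 noncoding transcripts the first in-frame stop lay well before the last exon junction, by 252 bases in Srsf9 NR_036616, 548 in Srsf3 NR_036613, 699 in Srsf7 NR_036615, 809 in Clk1 NR_027853, 2173 in Clk1 NR_027854, 637 in Luc7l NR_037905 and 1653 in Luc7l NR_037906. A stop more than about 50 bases before the last junction is the usual signal for nonsense-mediated decay. The coding transcripts of these 5 genes had their stop in the last exon. The Srsf1 transcript NM_001078167 is classed as coding: its stop, at base 52 of the retained intron, lies in its last exon and leaves 201 codons, against 248 in NM_173374, the transcript without the intron.

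**Figure D1:**
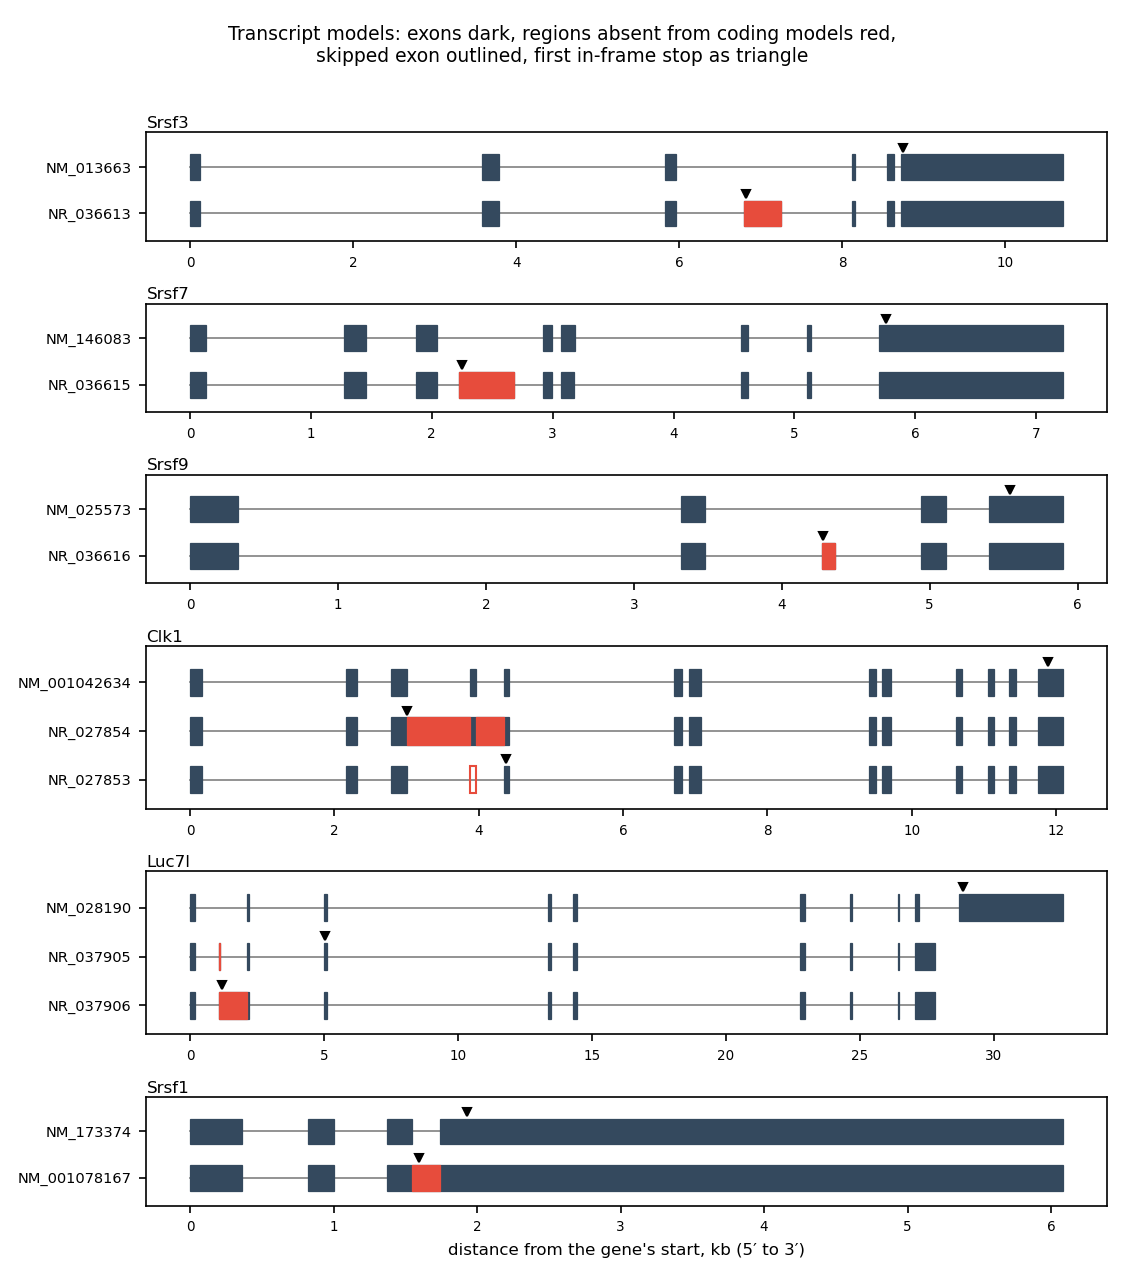
Exon models of noncoding or intron-retaining transcripts and a coding transcript of the same gene, drawn to scale as distance from the gene's start in kilobases, with exons as boxes, extra exons and retained introns in red, a skipped exon outlined and the first in-frame stop as a triangle. In the 7 NR_ models the triangle stands 252 to 2173 bases of transcript ahead of the last exon junction, while in the NM_ models it stands in the last exon.

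Messages for many splicing factors were lower in the synaptosome library than in the homogenate. Of 56 genes, 20 (35.7%) were at least 2-fold lower with counting intervals below 0, a call that 9.1% of all 14153 genes received, and 0 were at least 2-fold higher, where 12.8% of all genes were. The median log2 ratio, synaptosome over homogenate, was -0.76, with the middle of the list between -1.25 and -0.27, against -0.01 for all genes. The ratio was below 0 in 49 of the 56, against 50.7% of all genes. Each interval is an exact 95% interval for counting error of the estimated counts alone, and by it 44 genes lay below 0 and 4 above (Srsf4, Hnrnpf, Hnrnpul1 and Snrnp25). The other 8, Srsf9, Hnrnpc, Hnrnph3, Hnrnpr, Hnrnpul2, Snrnp27, Snrnp35 and Snrnp200, could not be placed on either side. The same count over all genes is not given here, so these counts have no background to be read against. Higher counts give narrower intervals, and the median of the mean levels was 98.2 CPM for members and 24.8 CPM for other genes. Together the 56 genes made up 0.389% of counts in the synaptosome library and 0.918% in the homogenate library. Per transcript length, their summed level was 3131 TPM in synaptosomes and 7438 TPM in homogenate. The hnRNPs made up the largest part of it, with 1694 TPM in synaptosomes and 3232 TPM in homogenate, and the SR and Tra2 proteins came next with 553 and 1540 TPM. SR-related proteins (169 TPM in synaptosomes and 607 TPM in homogenate), splicing kinases (166 and 571 TPM), snRNP proteins (261 and 625 TPM) and the Luc7-like and Rbm proteins (288 and 864 TPM) had less. TPM sums to the same total in each library and is not scaled by TMM, so these differences lean further toward lower than the log2 ratios do.

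These ratios are relative to the typical gene, since the scaling (TMM) rests on most genes being equal in both libraries. With library totals in place of TMM every log2 ratio moves by -0.49, and 36 members and 3629 of all genes (25.6%) were then at least 2-fold lower, with 0 members and 636 genes (4.49%) higher. By role, those 36 were 11 of the 13 SR and Tra2 proteins, 5 of the 5 SR-related proteins, 6 of the 18 hnRNPs, 6 of the 7 kinases, 3 of the 7 snRNP proteins and 5 of the 6 Luc7-like and Rbm proteins. By TPM, 37 members were at least 2-fold lower and 0 higher, against 27.7% and 4.01% of all genes. Of the 7 members above 0, Srsf4, Hnrnpc, Hnrnpf, Snrnp200, Snrnp35 and Snrnp25 lay below 0 under library totals, and Hnrnpul1 stayed above it at 0.34.

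**Figure D2:**
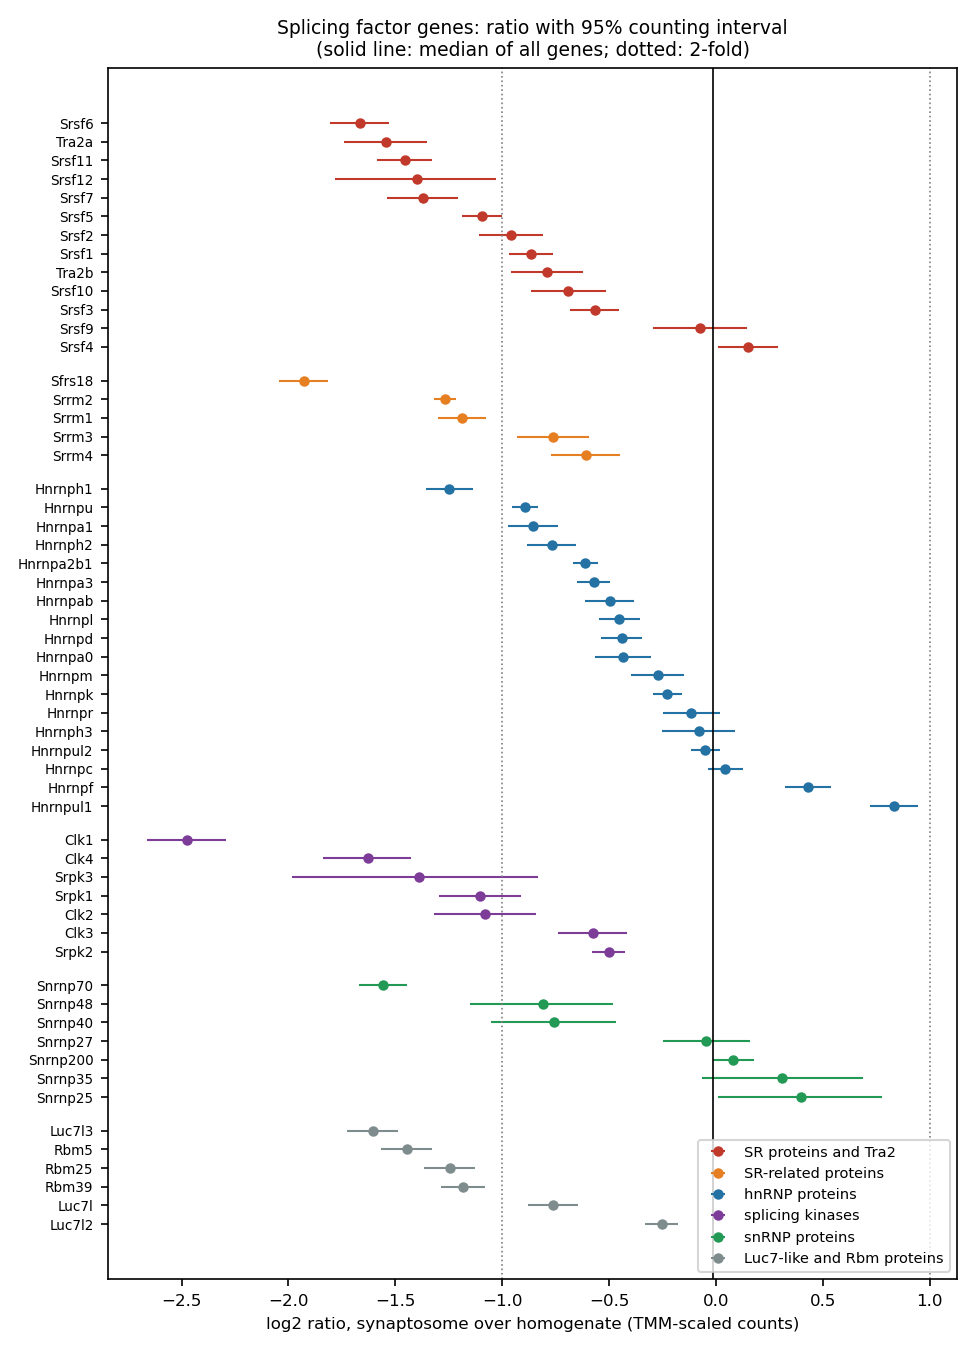
Log2 ratio of synaptosome over homogenate for each of the 56 genes, grouped by role, with bars for the 95% counting interval, a solid line at the median of all genes and dotted lines at 2-fold. The points run from -2.48 for Clk1 to 0.83 for Hnrnpul1, and 20 lie left of the 2-fold line at -1 with none right of the line at 1.

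The family is abundant, and abundant genes in general ran the other way. Among other genes of 100 to 300 CPM the median log2 ratio was 0.35, while the 24 members in that range had -0.86 and 11 of them were at least 2-fold lower. Between 30 and 100 CPM the 20 members had a median of -0.59 and other genes 0.04, and between 5 and 30 CPM the 9 members had -0.76 and other genes -0.12. The 3 members of 300 to 1000 CPM had a median of -0.89, against 0.83 for other genes. Over the whole range of the members' levels, 11221 other genes had a median of 0.02 and 722 of them (6.43%) were at least 2-fold lower. In each class of transcript length the members' median was below 0. It was -0.83 for the 14 below 2000 bases and -0.58 for the 23 of 2000 to 3000 bases. For the 12 of 3000 to 5000 bases it was -1.22, and for the 7 longer ones -0.50. Other genes had medians between -0.07 and 0.04 in the same classes. The members' share at least 2-fold lower ran from 14.3% in the longest class to 58.3% at 3000 to 5000 bases. Among other genes it was 7.56% and 8.81% in those classes. An effect of length was not tested.

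**Figure D3:**
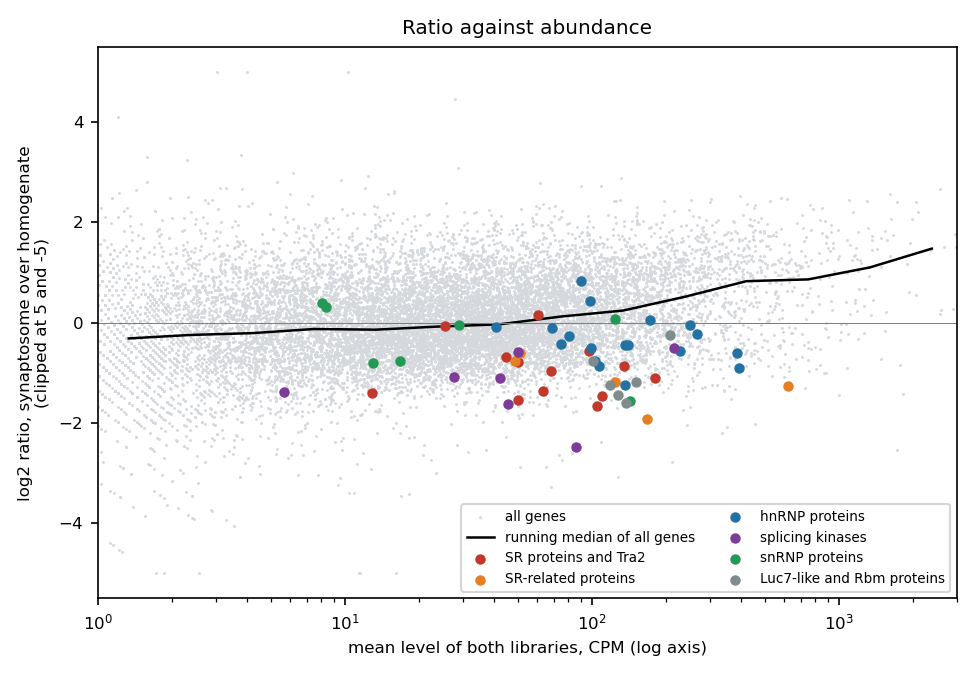
Log2 ratio of synaptosome over homogenate against the mean level of both libraries (CPM, log axis), with all 14153 genes in grey, a running median as a black line and the 56 splicing factor genes coloured by role. The median line climbs with level, to 0.83 for other genes of 300 to 1000 CPM, and 49 of the coloured points lie below 0.

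The SR proteins and the related Tra2 proteins had a median log2 ratio of -0.96, with 6 of 13 genes at least 2-fold lower and 0 higher. Srsf6 had 526 counts (45.5 CPM) in the synaptosome library and 2609 (145 CPM) in homogenate, which made it 3.18-fold lower (95% counting interval 2.89 to 3.50), the lowest of the group. Tra2a, a sequence-specific splicing activator, had 269 counts in synaptosomes and 1226 in homogenate and was 2.92-fold lower (2.56 to 3.34). Srsf11 followed, with 620 counts against 2658 in homogenate (2.75-fold lower, 2.52 to 3.00). Srsf12, read from few counts, had 75 in synaptosomes and 309 in homogenate (2.64-fold lower, 2.04 to 3.44). Srsf7 was 2.59-fold lower (2.31 to 2.90), with 375 counts in synaptosomes and 1515 in homogenate. The interval of Srsf12 spans those of Srsf11, Srsf7 and Tra2a, so the order of these 4 genes is not resolved.

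Srsf5 was the most abundant of the 13, with 1229 counts and 141 TPM in synaptosomes and 4095 counts and 440 TPM in homogenate. It stood just past the threshold at 2.13-fold lower (2.00 to 2.28). Srsf1, the founding member of the family, had 1041 counts against 2959 in homogenate and was 1.82-fold lower (1.70 to 1.96), and Srsf2 lay just inside the threshold at 1.94-fold lower (1.76 to 2.15). Tra2b, a close relative of Tra2a, had 400 counts against 1081 in homogenate (log2 ratio -0.79), Srsf10 377 against 950 (-0.69) and Srsf3 864 against 2000 (-0.57). At the other end, Srsf9 had 280 counts against 460 in homogenate, a log2 ratio of -0.07 whose interval held 0, and Srsf4 had 730 counts in synaptosomes and 1027 in homogenate, 1.11-fold higher (1.01 to 1.22). The range within this 1 protein family therefore ran from -1.67 to 0.15 on the log2 scale.

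The SR-related proteins had a median of -1.19, and 3 of 5 genes passed the 2-fold threshold as lower. Sfrs18, the older symbol of Pnisr, a nuclear protein with arginine- and serine-rich stretches, had 723 counts in synaptosomes and 4293 in homogenate and was 3.80-fold lower (3.51 to 4.12). Srrm2, a scaffold of nuclear speckles, was the most abundant member in CPM, with 3884 counts (336 CPM) against 14611 (810 CPM) in homogenate, and was 2.41-fold lower (2.33 to 2.50). Srrm1, a splicing coactivator, had 805 counts in synaptosomes and 2864 in homogenate (2.28-fold lower, 2.11 to 2.47). The neural members Srrm3 and Srrm4, which promote microexons in neurons, did not reach 2-fold: Srrm3 had 396 counts against 1048 in homogenate (log2 ratio -0.76) and Srrm4 447 against 1064 (-0.61).

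The splicing kinases were lower as well, with a median of -1.10 and 5 of 7 genes past 2-fold. Clk1, a nuclear kinase of SR proteins, had the lowest ratio of all 56 genes, with 268 counts (23.2 CPM) in the synaptosome library and 2327 (129 CPM) in homogenate. It was 5.56-fold lower (4.90 to 6.33). Clk4, its closest relative, had 233 counts against 1126 in homogenate and was 3.10-fold lower (2.69 to 3.58). Clk2 had 190 counts in synaptosomes and 627 in homogenate (2.11-fold lower, 1.79 to 2.50), while Clk3 had 445 against 1036 and a log2 ratio of -0.58. All 4 Clk genes were thus below 0, but Clk1 stood clear of the rest by its interval when its coding and noncoding transcripts were summed. Its coding transcript alone was 3.39-fold lower (2.82 to 4.09), an interval that overlapped that of Clk4. By coding transcripts alone Sfrs18, at a log2 ratio of -1.93, was the lowest of the 56 genes, and Clk1 was at -1.76.

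The Srpk kinases, which act largely in the cytoplasm, were split by size. Srpk1 had 290 counts against 972 in homogenate and was 2.15-fold lower (1.88 to 2.46). Srpk3, best known from muscle, had 33 counts in synaptosomes and 135 in homogenate (2.62-fold lower, 1.78 to 3.96). Srpk2, the brain-rich member and the most abundant kinase here, had 1963 counts against 4341 in homogenate and a log2 ratio of -0.50. Its interval did not meet those of Srpk1 and Srpk3.

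The hnRNP genes lay closer to the typical gene. Their median log2 ratio was -0.44, and of 18 genes 1 (5.56%) was at least 2-fold lower and 0 were higher, against 9.1% and 12.8% of all genes. Hnrnph1, which binds runs of G, was the one past the threshold, with 859 counts in synaptosomes and 3184 in homogenate (2.37-fold lower, 2.20 to 2.56). Its paralog Hnrnph2 had a log2 ratio of -0.77, Hnrnph3 one of -0.08 and the related Hnrnpf one of 0.43, so these paralogs lay on both sides of 0. The reads of such close paralogs may be divided among them by the estimate, which was not tested.

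Hnrnpu, a scaffold attachment protein, and Hnrnpa2b1, which carries mRNAs such as Mbp along oligodendrocyte processes, were the 2 most abundant hnRNPs in CPM. Hnrnpu had 2970 counts against 8619 in homogenate and was 1.86-fold lower (1.78 to 1.94). Hnrnpa2b1 had 3358 counts against 8016 in homogenate and was 1.53-fold lower (1.47 to 1.59). Hnrnpul1, a relative of Hnrnpu, had the highest ratio of the 56 genes, with 1384 counts (120 CPM) in synaptosomes and 1212 (67.2 CPM) in homogenate, 1.78-fold higher (1.65 to 1.93). Hnrnpf was 1.35-fold higher (1.25 to 1.45), with 1310 counts against 1518. These 2 genes were the hnRNPs whose intervals lay above 0. The remaining 11 genes had log2 ratios between -0.86 and 0.04. Hnrnpa1, the classic silencer of exons, was the lowest of them, with 824 counts against 2328 in homogenate, and Hnrnpc, which binds runs of U in introns, was the highest, with 1997 against 3024. Hnrnpk, which binds runs of C and had 246 TPM in synaptosomes and 418 TPM in homogenate, was at -0.23 from 2755 and 5038 counts. Hnrnpa3 (-0.57), Hnrnpab (-0.50), Hnrnpl (-0.45), Hnrnpd (-0.44), Hnrnpa0 (-0.43) and Hnrnpm (-0.27) had intervals below 0, and Hnrnpr (-0.12) and Hnrnpul2 (-0.05) had intervals that held 0.

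Proteins of the snRNPs had a median of -0.05, and 1 of 7 genes (14.3%) passed 2-fold as lower, against 9.1% of all genes. Snrnp70, the U1 protein that contacts SR proteins, had 758 counts in synaptosomes and 3483 in homogenate and was 2.94-fold lower (2.72 to 3.19). Snrnp200, the helicase of the U5 particle, had 1453 counts against 2144 in homogenate and a log2 ratio of 0.08 whose interval held 0. Snrnp40 of the U5 particle had 135 counts against 356 (-0.76), and Snrnp27 324 against 522 (-0.05). Of the 3 proteins of the minor, U12-type spliceosome, Snrnp48 had a log2 ratio of -0.81, Snrnp35 0.31 and Snrnp25 0.40, each from at most 282 counts in a library.

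The Luc7-like and Rbm proteins, which associate with U1 or with the 3′ splice site, had a median of -1.21, and 4 of 6 passed 2-fold as lower. Luc7l3 had 710 counts in synaptosomes and 3375 in homogenate (3.04-fold lower, 2.81 to 3.31). Rbm5, a regulator of splicing in apoptosis genes, had 723 counts against 3079 (2.73-fold lower, 2.51 to 2.96). Rbm25 and Rbm39 were 2.37-fold lower (2.19 to 2.58) and 2.27-fold lower (2.11 to 2.44), from 749 and 987 counts in synaptosomes and 2774 and 3495 in homogenate. The paralogs Luc7l and Luc7l2 were nearer to 0: Luc7l had 814 counts against 2158 in homogenate (log2 ratio -0.76), and Luc7l2, the most abundant of the 6, had 2120 against 3947 and was 1.19-fold lower (1.13 to 1.26).

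Summed within each of the 5 genes with both kinds, the noncoding counts were lower in synaptosomes by more than the coding ones. In Luc7l the difference did not reach 2-fold, and its noncoding transcript NR_037905 was higher. A comparison within a gene does not depend on the scaling between libraries. Of the 5 members with both kinds, 4 had a noncoding-to-coding ratio at least 2-fold lower in the synaptosome library with an interval below 0, against 25.1% of the 211 genes with both kinds and at least 10 counts of each. All 5 log2 odds ratios were below 0, against 55.9% of the 211. The other 206 genes had a median log2 odds ratio of -0.15, and 54 of them were at least 2-fold higher and 49 lower. Among the 5 members 0 were at least 2-fold higher.

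Srsf3, at chr17:29032660-29043372, had 99 noncoding and 765 coding counts in synaptosomes, and 569 noncoding and 1431 coding counts in homogenate. The transcript with the extra exon thus held 11.5% of the gene's counts in synaptosomes (exact interval 9.41 to 13.8) and 28.4% in homogenate (26.5 to 30.5), a log2 odds ratio of -1.62 (-1.97 to -1.28). In levels, the noncoding transcript was 3.68-fold lower (2.97 to 4.60) and the coding one had a log2 ratio of -0.26 (-0.39 to -0.13).

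Srsf7, at chr17:80200080-80207305, had a shift whose interval overlapped that of Srsf3. Its noncoding transcript had 96 counts in synaptosomes and 716 in homogenate, beside 279 and 799 coding counts. The noncoding share was 25.6% in synaptosomes (21.3 to 30.3) and 47.3% in homogenate (44.7 to 49.8), a log2 odds ratio of -1.38 (-1.76 to -1.01). The noncoding level was 4.78-fold lower (3.86 to 5.97) and the coding level 1.83-fold lower (1.60 to 2.11), so the coding transcripts of Srsf7 alone did not reach the 2-fold threshold that the whole gene passed.

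Srsf9, at chr5:115327177-115333080, had a log2 ratio near 0 as a gene, while its transcripts diverged. Noncoding counts were 71 in synaptosomes and 213 in homogenate, while coding counts were 209 and 248. The noncoding share was 25.4% in synaptosomes (20.4 to 30.9) and 46.2% in homogenate (41.6 to 50.9), a log2 odds ratio of -1.34 (-1.83 to -0.85). The coding level was 1.32-fold higher in synaptosomes (1.09 to 1.59), a direction that turns under library totals, and the noncoding level was 1.92-fold lower (1.46 to 2.55).

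Clk1, at chr1:58411988-58424088, had the highest noncoding share of the 5 genes in both libraries. Noncoding counts were 130 in synaptosomes and 1592 in homogenate, and coding counts were 139 and 735. The noncoding share was 48.3% in synaptosomes (42.2 to 54.5) and 68.4% in homogenate (66.5 to 70.3), a log2 odds ratio of -1.21 (-1.59 to -0.83). The intron-retaining NR_027854 had 74 counts against 908 in homogenate (7.86-fold lower) and the exon-skipping NR_027853 56 against 684 (7.82-fold lower), so both forms were lower by about the same factor. The coding transcript was 3.39-fold lower (2.82 to 4.09), which on its own was past the 2-fold threshold. With the posterior count, a second estimate in the same files, the log2 odds ratio was -0.96 and Clk1 no longer passed, leaving 3 of 5 members, where 15.5% of 233 genes passed by that estimate. With at least 50 counts of each kind required, 4 members passed, against 23.2% of 168 genes.

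Luc7l, at chr17:26252910-26285506, was the exception. Noncoding transcripts had 68 counts in synaptosomes and 236 in homogenate, and coding transcripts 746 and 1922. The noncoding share was 8.35% in synaptosomes (6.55 to 10.5) and 10.9% in homogenate (9.65 to 12.3), a log2 odds ratio of -0.43 (-0.86 to -0.01) that did not reach 2-fold and was 0.09 in TPM. Its noncoding transcripts went opposite ways: NR_037906, which keeps the 1057-base stretch, had 15 counts in synaptosomes and 229 in homogenate, while NR_037905, which has only the first 71 bases of that stretch as an exon, had 53 against 7. Both noncoding transcripts also differ in their 3′ end from NM_028190, which held all coding counts of Luc7l. The coding transcript that shares their 3′ end, NM_025881, was at 0 in both libraries. The part of the 3′ ends in the noncoding share was not tested.

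**Figure D4:**
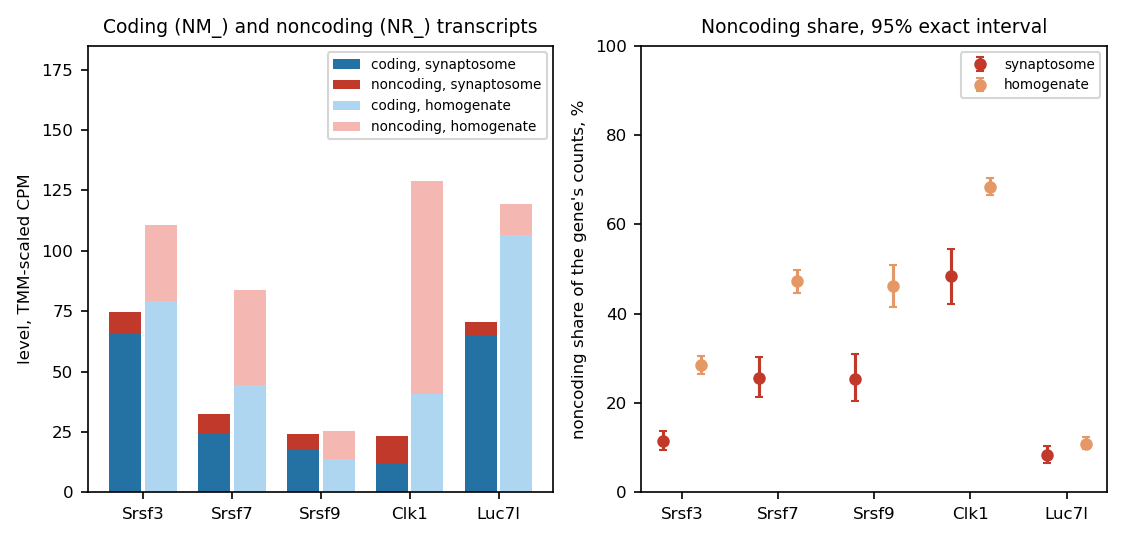
Left, stacked bars of the scaled level (CPM) of noncoding transcripts (red) on top of coding ones (blue) for 5 genes, with synaptosome in dark and homogenate in light colour; right, the noncoding share of each gene's counts in percent with exact 95% intervals. The synaptosome share is below the homogenate share in each gene, from 8.35% against 10.9% in Luc7l to 48.3% against 68.4% in Clk1, and the intervals of Luc7l overlap.

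**Figure D5:**
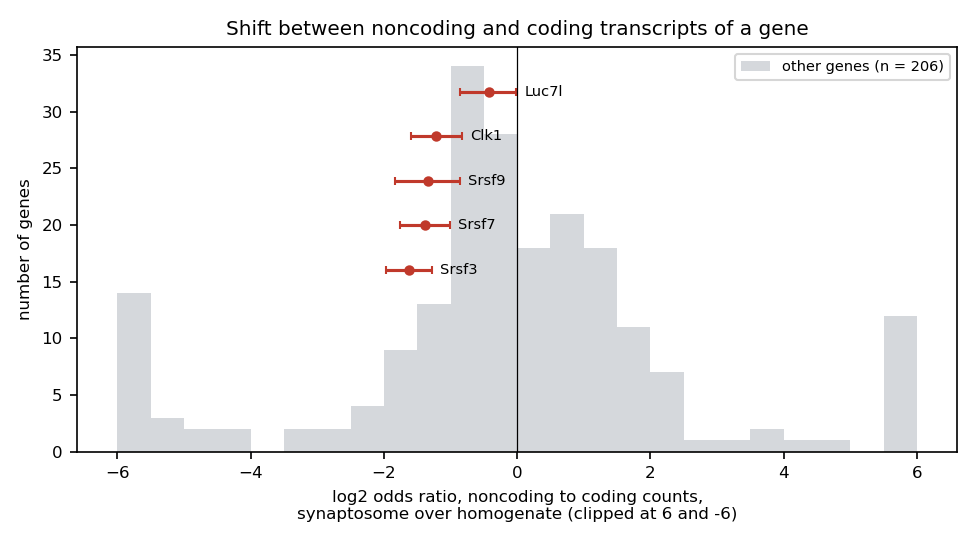
Histogram of the log2 odds ratio of noncoding to coding counts, synaptosome over homogenate, in 206 other genes (grey, vertical axis in genes), with the 5 splicing factor genes and their 95% intervals in red at arbitrary heights. The red points lie between -1.62 and -0.43, left of 0, while the grey bars lie on both sides with a median of -0.15.

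A further comparison, added after these values were seen, took transcripts that keep an intron which another transcript of the gene removes. Of 4 members with such a pair, 3 had the intron-retaining form at least 2-fold lower relative to the others, against 26.9% of 208 genes. Srsf1 had the most counts of the 4: NM_001078167, with the 196-base intron shown above, had 256 counts in synaptosomes and 1935 in homogenate, while NM_173374, without it, had 785 and 1023. The intron-retaining form was 24.6% of the gene's counts in synaptosomes (22.0 to 27.3) and 65.4% in homogenate (63.7 to 67.1), a log2 odds ratio of -2.54 (-2.77 to -2.30). The spliced form had a log2 ratio of 0.26 between libraries and the intron-retaining form one of -2.28, so the lower level of Srsf1 as a gene lay in the intron-retaining form (the spliced form lies below 0 under library totals). In Luc7l the log2 odds ratio was -2.66 (-3.53 to -1.90), from the 15 and 229 counts above. The intron kept there is removed as such only by the noncoding NR_037905 (53 counts in synaptosomes and 7 in homogenate). Most of the other Luc7l counts are of NM_028190, which removes a longer intron and has another 3′ end, so this value is not a retained intron against its spliced form. In Hnrnpm, NM_029804 was 38.0% of counts in synaptosomes and 56.6% in homogenate (-1.09, -1.35 to -0.84), and in Clk1 the log2 odds ratio was -0.75 (-1.18 to -0.34). Both Hnrnpm transcripts, NM_029804 of 2532 bases and NM_001109913 of 2415, are classed as coding, and their reading frames were not examined.

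Isoforms of the same gene also shifted in share. Among 48 member transcripts with at least 100 counts of their own and 100 in the rest of the gene, 22 had odds shifted at least 2-fold in either direction, against 44.6% of 4390 transcripts. The members' share is near that background, and the examples that follow were chosen for their size after the values were seen. In Hnrnpa3, NM_053263 had 555 counts in synaptosomes and 3578 in homogenate, and NM_146130 had 1199 and 520. By the exon coordinates, NM_146130 has 66 bases that NM_053263 lacks, and NM_053263 has 0 of its own. In Hnrnpc, NM_001170982 was 42.6% of counts in synaptosomes and 18.4% in homogenate, a log2 odds ratio of 1.72 (1.53 to 1.91). In Srsf11, NM_026989 was 21.1% of counts in synaptosomes and 53.6% in homogenate (-2.11, -2.42 to -1.80). In Hnrnpa2b1 the longer NM_016806 was 58.1% of counts in synaptosomes and 70.5% in homogenate, a log2 odds ratio of -0.79 (-0.91 to -0.67) that did not reach 2-fold. Over single transcripts, 91 of the 97 had a mean of at least 0.5 CPM and 6 were at 0 in both libraries. Of the 91, 34 were at least 2-fold lower and 6 higher, where 14.1% and 16.2% of 18851 transcripts were. Under library totals 58 were lower, against 28.4% of the 18851, and by TPM 57, against 27.8%.

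Other parts of the splicing pathway had medians between -0.54 and -0.27. Of 18 measured genes for Sm, Lsm and other snRNP proteins, 0 passed 2-fold as lower and 1 as higher, and the median log2 ratio was -0.27. Most encode the Sm and Lsm rings of the snRNPs, while Snrpa, Snrpa1, Snrpb2 and Snrpc encode other proteins of U1 or U2. With TMM, 9.1% of all genes were lower and 12.8% higher. The counts in this and the next paragraph depend on the scaling: under library totals, where 25.6% of all genes were lower, 6 of the 18 were lower and 0 higher. The extremes were Lsm2 (52 counts in synaptosomes and 129 in homogenate, 1.59-fold lower) and Lsm6 (928 and 673, 2.15-fold higher, 1.95 to 2.38). Of 30 genes of the U2 particle and the Prp factors, 2 were lower and 0 higher (median -0.37), or 11 and 0 under library totals. The 2 were Prpf39, a U1 factor, with 111 counts in synaptosomes and 1014 in homogenate (5.85-fold lower, 4.81 to 7.18), and Sf3b1, the branch site protein of U2, with 1524 and 6073 (2.55-fold lower, 2.41 to 2.70). The highest of that list, Dhx38, had a log2 ratio of 0.19.

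Of 16 genes of the exon junction complex and nonsense-mediated decay, 3 were lower and 0 higher, or 7 and 0 under library totals, with a median of -0.39. Upf3b, which joins both, had 135 counts in synaptosomes and 542 in homogenate (2.57-fold lower, 2.13 to 3.13), and Sap18 had the highest log2 ratio at 0.54. Of 23 splicing regulators of neurons and glia, 2 were lower and 1 higher, or 12 and 1 under library totals, with a median of -0.54. Elavl2, a neuronal RNA-binding protein, was 3.12-fold lower (2.68 to 3.64), with 206 counts in synaptosomes and 1004 in homogenate. Qk, the glial regulator quaking, was 2.89-fold higher (2.79 to 3.00), with 8399 and 4538 counts. In the synaptosome library 7 of 8 astrocyte and 2 of 6 oligodendrocyte markers were at least 2-fold higher, and a link with Qk was not tested. Of 11 other kinases known to act on splicing factors or related to the Clk family, 3 were lower and 0 higher (median -0.32), or 5 and 0 under library totals, from Dyrk3 at -1.39 to Dyrk2 at 0.15.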

How the data were processed

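Each transcript had been quantified by the authors, who deposited an expected count, a posterior count and a TPM value per transcript for each library, and a signal per gene for both. Tools named in the submitters' processing notes are TopHat 1.3.3, edgeR 3.0.6, RSEM 1.2.5 and FastQC, on mm10. How each was run was not given in the sources used here, nor whether counting used strand. The mRNA kit was stranded, per the labels' protocols. The deposited expected counts can be fractional, since reads shared by overlapping transcripts are divided by estimate. The deposited signal was the gene's count times 1.253 (synaptosome) or 0.7983 (homogenate) at the median. Genes with near-identical copies are uncertain for the same reason.

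Here the deposited expected counts were summed per symbol, rounded (transcripts separately, so sums can differ by 1) and scaled with TMM (edgeR 4.0.16 in R 4.3.3; factors 0.8430 and 1.1863 for synaptosome and homogenate). CPM given for a single library are TMM-scaled. Mean CPM over both libraries were taken from library totals without TMM. These means set the minimum levels, the median levels of members and other genes, and the CPM classes. A mean of 1 CPM over both libraries was the minimum. Ratios have exact Clopper-Pearson 95% intervals given the summed count, odds ratios exact conditional ones. Both cover counting error of the estimates only, PCR copies are not independent molecules, and the intervals leave out the error of assigning reads. With 1 library per fraction no test was made: a gene or transcript counts as lower or higher when it is at least 2-fold so and its interval excludes 0. A transcript at 0 in 1 library was given a floor of 3 counts there. Reading frames were read on GENCODE M21 transcripts (mm10). Scripts used Python 3.11.15, numpy 2.4.6, scipy 1.17.1 and pandas 2.3.3 and were tested on simulated data.

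The members and all gene lists were chosen with earlier results of these data known. Named were every member past 2-fold, in each role the 2 most abundant and the highest and lowest of at least 10 CPM, all members with both kinds of transcript, and the extremes of each other list. The remaining members are named to account for all 56.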

Additional observations from a re-analysis of the deposited data

How the results depend on the processing

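No paired analysis was possible because each fraction had 1 library, and for the same reason no library could be left out. Both the scaling and the threshold moved the counts. With library totals the members' median log2 ratio was -1.26, 36 members were at least 2-fold lower, and 3629 of all genes (25.6%) were lower and 636 (4.49%) higher. With TPM the median was -1.30, 37 members were lower, and 3926 genes (27.7%) were lower and 568 (4.01%) higher. For member transcripts, 58 were lower with library totals, against 28.4% of all 18851 transcripts, and 57 with TPM, against 27.8%. A threshold of 1.5-fold gave 33 members lower and 1 higher, beside 2954 and 3391 genes, and one of 3-fold gave 5 members lower, beside 395 genes lower and 512 higher. With a minimum of 10 CPM, 578 genes were lower. The members' median was -0.74 with DESeq2 size factors and -0.75 with the deposited signal. Posterior counts gave 3 of 5 members with a lower noncoding-to-coding ratio, against 15.5% of 233 genes, and a minimum of 50 counts of each kind gave 4, against 23.2% of 168 genes. Among the 56 genes Srpk3 had the fewest counts over both libraries (33 in synaptosomes and 135 in homogenate), and several transcripts had 0 or few in 1 library, such as Luc7l NR_037905 (53 and 7) and Srsf11 NM_001093753 (161 and 5).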

Other observations

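For several member transcripts the expected count and the posterior count in the same files gave different pictures. Clk2 NM_001163432 was listed at 0 expected counts in the synaptosome library and 170 in homogenate, while its posterior counts were 14 and 179. Srsf11 NM_001093753 had 161 expected counts in synaptosomes and 5 in homogenate, but posterior counts of 177 and 242, and its log2 odds ratio against the rest of the gene was 7.54 by the first and 2.00 by the second. Hnrnpf NM_001166427 had 102 expected counts in synaptosomes and was listed at 0 in homogenate, with posterior counts of 126 and 17. The direction of the odds was the same by both estimates in these 3 transcripts. The cause of the differences was not tested.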
